A study of Homo sapiens with 9 samples.

Results

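The transcriptomes of 3 clonal CCM3 knockout lines were set against those of 3 wild-type samples of CI-huVEC, immortalized endothelial cells of the human umbilical vein, with no treatment in either group. The 6 libraries are part of a set of 9, and the comparison covered the 13802 of 28514 gene symbols in the count table that passed a filter on low counts. Clones 21, 22 and 23 are labelled CCM3 -/- after CRISPR/Cas9 editing of exon 3, and samples 1, 2 and 3 are labelled wild-type. Every library is at passage 31. The other 3 libraries came from the same clones grown on 5 µg of fibronectin per square centimetre for 48 h. They entered the filter and the scaling of libraries, and the fit, where they share the estimate of spread. With the 6 libraries alone 13600 genes were tested. The study's design text names 3 lines per group and calls the knockout lines, but not the wild-type ones, clonal. All 9 samples, wild-type included, carry the same clone label, HKO, which is not explained, so whether the wild-type samples are clonal is not known, and effects of clonal origin and genotype cannot be told apart. Nor do they say whether samples of 1 group were cultured separately, and p-values measure the spread between these samples, which may be technical. The filter passed a gene with its third-highest library at 0.353 counts per 1000000 and dropped a gene at 0.348, and 7794 of the 14712 genes it dropped had 0 counts in all 9 libraries.

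CCM3, listed as PDCD10, is a scaffold protein that joins the adaptor CCM2 and the ankyrin protein KRIT1 in the cerebral cavernous malformation complex and also sits in the STRIPAK phosphatase complex with germinal centre kinases. In endothelium the complex is known to hold back the kinase MEKK3, which acts through MEK5 and ERK5 on MEF2 factors and so on the genes of the flow-responsive factors KLF2 and KLF4. Inherited mutations of its genes cause dilated, leaky clusters of brain capillaries.

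PDCD10 itself was lower in each clone than in each wild-type library, but its mRNA remained. Its level was 46.3, 48.4 and 53.1 CPM (counts per 1000000 of the library total after TMM scaling) in wild-type 1, 2 and 3 and 42.3, 35.6 and 37.6 CPM in clones 21, 22 and 23, a log2 fold change of -0.36 (SE 0.08, edgeR adjusted p = 0.00186). Gene counts do not show the edit.

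Total counts per library ran from 25982627 to 30280241. Replicates lay close together: over 8656 genes at 10 CPM or more in both groups the median SD of log2 CPM was 0.0707 within wild-type and 0.0725 within the knockout, and 52.0% of these genes had the larger SD among the clones. All 12 endothelial markers were tested, 8 rose and 0 fell, against 23.04% of all tested genes that rose and 27.05% that fell. The endothelial label rests on the levels of these markers, since every tested epithelial and leukocyte marker rose too. The summed level of the endothelial markers was 2841 to 3209 CPM in wild-type and 6441 to 6952 CPM in knockout. The gain came mostly from VWF, at 275 to 372 CPM in wild-type and 2565 to 2926 CPM in knockout. CDH5, ERG, EGFL7 and ROBO4 were not called. Markers of other cell types had lower sums. Among smooth muscle and pericyte markers 3 of 9 were tested and 2 fell, with sums of 129 to 146 CPM in wild-type and 27.4 to 35.5 CPM in knockout, mostly from RGS5, a G protein regulator at 86.3, 89.8 and 80.5 CPM in wild-type and 5.09, 5.21 and 5.97 CPM in the clones, and from SMTN. DES of that list was at 0 in every library. Of 9 fibroblast markers 4 were tested and 2 fell, LUM and DPT were at 0, and the sums were 8.54 to 9.72 CPM in wild-type and 5.80 to 44.9 CPM in knockout. The wide range came from FAP, a membrane protease, at 6.21, 7.54 and 6.43 CPM in wild-type and 44.6, 11.9 and 4.96 CPM in the clones, so clone 21 stood apart and its log2 fold change of 1.60 (adjusted p = 0.272) was 0.34 without that clone. Epithelial markers summed to 190 to 198 CPM in wild-type and 291 to 308 CPM in knockout, 3 of 7 were tested and rose, mostly by KRT18, and KRT14 was at 0. Leukocyte markers summed to 17.3 to 18.03 and 27.5 to 28.6 CPM, 4 of 7 were tested and rose, mostly by CD68, and PTPRC stayed at or below 0.115 CPM. Their part in the results was not tested. In bulk RNA, fewer cells of a type and less RNA per cell cannot be told apart.

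Of the 13802 genes, 3180 (23.04%) rose and 3733 (27.05%) fell at an adjusted p under 0.05 (edgeR quasi-likelihood test, Benjamini-Hochberg adjustment over all tested genes), together 6913 (50.1%). The balance depended on the setting: 3648 rose and 3689 fell with the 6 libraries alone, and 2999 and 3953 with library totals in place of TMM scaling. It was 3257 and 3255 with a filter of 1 CPM in 3 libraries, 2859 and 2842 without wild-type 1, and 3201 and 3138 without clone 21. A stricter rule, a test against a fold of 1.5, called 1918 genes (13.9%), of which 848 (6.14%) rose and 1070 (7.75%) fell. The median log2 fold change over all tested genes was -0.03, the median of the genes that rose was 0.48 and that of the genes that fell -0.55. At least 4-fold changes numbered 323 upward and 477 downward, and at least 16-fold changes 98 upward and 157 downward. The libraries of the groups did not overlap for 8483 genes (61.5%), with the knockout higher for 28.2% and lower for 33.3%. Among the genes called at 1.5-fold, 1917 of 1918 did not overlap. The called share rose with abundance, from 32.0% of 1298 genes below 1 CPM in the higher group to 59.0% of 2210 genes above 100 CPM. The share called at 1.5-fold was 19.1% and 11.9% in the same classes, 22.7% of 3160 genes between 1 and 10 CPM and 9.69% of 7134 genes between 10 and 100 CPM.

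**Figure D1:**
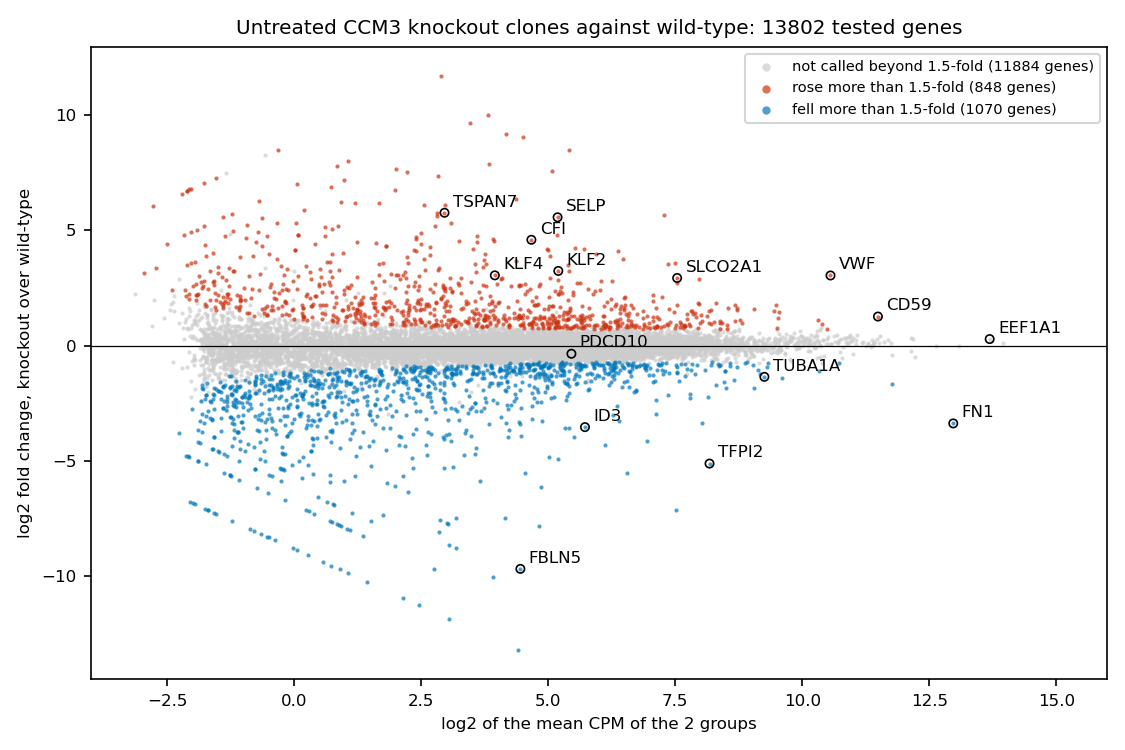
Each point is 1 of the 13802 tested genes, with log2 of the mean CPM of both groups on the x axis and the log2 fold change of knockout over wild-type on the y axis, coloured where called at more than 1.5-fold. The 848 genes that rose and 1070 that fell spread over the whole range of abundance, with FN1 far below and VWF far above the line of no change among abundant genes, and PDCD10 close to that line.

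In the authors' deposited table of the same comparison 6591 of 19950 genes were called, 3291 upward and 3300 downward. Over the 13792 genes in both analyses 6140 were called by both, which is 94.8% of the calls of the authors' deposited table among these genes and 88.9% of the calls made here, with 0 in opposite directions.

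KLF2 and KLF4, placed at the end of the MEKK3 cascade, rose, while the mRNA of its kinases moved little. Kinase activity was not measured, and whether the cascade led to the rise was not tested. KLF2, a transcription factor raised by laminar flow, was at 6.13, 7.97 and 6.89 CPM in wild-type and 61.1, 66.5 and 71.4 CPM in the clones, 9.46-fold higher (log2 fold change 3.24, SE 0.13). KLF4, its relative in the same response, was at 3.73, 3.33 and 2.92 CPM in wild-type and 29.2, 26.02 and 27.4 CPM in the clones (8.28-fold). For both genes every clone lay far above every wild-type library. Of the 10 KLF genes listed and tested, 4 rose, 3 fell and 3 were not called. KLF11 (log2 fold change 0.99, SE 0.09) and KLF3 (0.45, SE 0.06) rose, and KLF6, an early response factor, fell from 330.4, 319 and 321 CPM to 232, 214 and 192 CPM. The abundant KLF13 was at 82.3, 78.5 and 75.2 CPM in wild-type and 87.9, 84.8 and 77.5 CPM in the clones, overlapping levels (log2 fold change 0.08, adjusted p = 0.36). Of 3 MEF2 genes MEF2A rose, from 55.2, 55.1 and 55.9 CPM to 91.9, 92.3 and 89.1 CPM (log2 fold change 0.72, SE 0.06), and 2 were not called. Of the 4 kinases 1 rose, 2 fell and 0 were called at 1.5-fold. The 17 listed genes thus held 6 risen, 5 fallen and 6 uncalled members around a median log2 fold change of 0.08, and at 1.5-fold 4 rose and 0 fell.

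To place these genes in the genome, the 250 bases before the RefSeq start (GRCh38.p14) are printed for KLF2 and KLF4, which rose. They are also printed for FN1, the fibronectin gene, and for ID1 and ID3, related targets of bone morphogenetic protein signalling. ID1 was called under some settings only. Capitals mark a match to a MEF2 motif, searched by name on both strands, found in 0.515% of 35116 promoter windows of this length. The other motifs searched on both strands, CCACACCC of KLF factors (2.97% of windows) and GGCGCC bound by SMAD factors (16.4%), share no bases with it here and had no match in these windows. KLF2 is read from chr19:16324576-16324825 on the plus strand, KLF4 from chr9:107489770-107490019 on the minus strand, FN1 from chr2:215436069-215436318 on the minus strand, ID1 from chr20:31605039-31605288 on the plus strand and ID3 from chr1:23559502-23559751 on the minus strand. The match in KLF2 begins 120 bases before the start.
KLF2: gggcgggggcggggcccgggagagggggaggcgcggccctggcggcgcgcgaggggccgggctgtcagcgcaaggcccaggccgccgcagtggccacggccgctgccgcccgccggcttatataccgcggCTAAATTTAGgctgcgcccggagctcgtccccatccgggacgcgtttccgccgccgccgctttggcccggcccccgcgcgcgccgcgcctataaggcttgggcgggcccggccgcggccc
KLF4: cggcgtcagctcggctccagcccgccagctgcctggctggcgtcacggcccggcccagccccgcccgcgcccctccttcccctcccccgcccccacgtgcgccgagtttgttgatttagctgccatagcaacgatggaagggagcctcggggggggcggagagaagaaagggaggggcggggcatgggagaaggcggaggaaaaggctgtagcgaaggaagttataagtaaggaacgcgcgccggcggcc
FN1: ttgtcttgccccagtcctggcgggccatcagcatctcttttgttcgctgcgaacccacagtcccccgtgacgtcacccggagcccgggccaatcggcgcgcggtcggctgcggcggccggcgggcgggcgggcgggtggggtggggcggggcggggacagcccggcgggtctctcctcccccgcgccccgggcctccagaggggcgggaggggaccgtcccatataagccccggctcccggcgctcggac
ID1: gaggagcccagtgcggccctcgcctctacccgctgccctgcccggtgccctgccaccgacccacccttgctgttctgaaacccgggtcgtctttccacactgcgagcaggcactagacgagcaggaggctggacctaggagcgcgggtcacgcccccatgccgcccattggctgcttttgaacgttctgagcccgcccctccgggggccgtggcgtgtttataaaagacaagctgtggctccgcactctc
ID3: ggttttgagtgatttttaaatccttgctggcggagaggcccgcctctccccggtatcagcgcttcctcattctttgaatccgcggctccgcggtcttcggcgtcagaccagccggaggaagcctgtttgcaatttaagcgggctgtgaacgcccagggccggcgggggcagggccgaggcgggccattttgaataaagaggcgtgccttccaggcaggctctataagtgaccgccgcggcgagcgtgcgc

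ID3, an inhibitor of helix-loop-helix factors, was at 97.99, 99.5 and 94.2 CPM in wild-type and 7.54, 9.18 and 8.25 CPM in the clones, 11.7-fold lower (log2 fold change -3.54, SE 0.08). Its paralog ID1 was at 42.1, 40.04 and 40.1 CPM in wild-type and 25.2, 31.3 and 35.5 CPM in the clones, a log2 fold change of -0.41 that was not called (SE 0.17, adjusted p = 0.0758). The 3 clones all lay below wild-type for ID1, with clone 21 lowest and clone 23 nearest, and it was called as lower under 6 of 15 alternatives. Adjusted p was 0.0073 with the 6 libraries alone, 0.0448 without clone 23, 0.0463 without robust estimation, 0.0277 with DESeq2, and 0.0472 and 0.0456 with limma with and without the replicate block. The difference between the responses of the paralogs was not tested.

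By reads gained and lost, a small set of abundant genes carried much of the shift. Genes that rose gained 10.1% of all CPM and genes that fell lost 9.20%, and 149 risen and 109 fallen genes held 50% of each. FN1, which encodes the matrix protein fibronectin, alone made up 14.4% of the loss. Its level was 15512, 14014 and 14499 CPM in wild-type and 1427, 1417 and 1374 CPM in the clones, and per length, in the authors' FPKM values, the group means were 1425 and 134. Matrix genes among the 12 with the largest loss in CPM were THBS1, thrombospondin, at 5788, 5523 and 5432 CPM in wild-type and 3631, 4202 and 4109 CPM in the clones, and SPARC, a collagen-binding protein, with a log2 fold change of -0.76 (SE 0.06). COL4A1, a chain of basement membrane collagen, fell from 1202, 1162 and 1043 CPM to 382, 479 and 416 CPM (2.67-fold), and ITGA5, the fibronectin receptor subunit, from 1711, 1777 and 1576 CPM to 849.9, 1044 and 1076 CPM. TFPI2, a matrix-bound protease inhibitor, had 579.7, 542 and 563 CPM in wild-type and 29.1, 10.2 and 9.22 CPM in the clones. Clone 21 kept more of its transcript than clones 22 and 23, and its log2 fold change of -5.13 (SE 0.64) was -5.83 without that clone. ACTG1, a cytoplasmic actin (log2 fold change -0.42), MSN, the membrane linker moesin (-0.53), and VIM, vimentin (-0.23), fell as well, as did THBS1 by 0.49 on the log2 scale. VIM was not called without clone 21 (log2 fold change -0.18, adjusted p = 0.0503).

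Several membrane proteins were among the 12 genes with the largest gain in CPM, and CD59 and VWF of these 12 are described with their lists. CAV1, the coat protein of caveolae, had 778, 829 and 792 CPM in wild-type and 1788, 1747 and 1641 CPM in the clones (2.16-fold). TM4SF1, a small membrane protein of endothelium, rose from 372, 416 and 403 CPM to 1172, 1044 and 1071 CPM (2.76-fold), and MMP1, the interstitial collagenase, from 286, 364 and 334 CPM to 1019, 1115 and 1199 CPM (3.39-fold). B2M, the light chain of class I histocompatibility molecules, was at 925, 1014 and 992 CPM in wild-type and 1861, 1546 and 1615 CPM in the clones, highest in clone 21. Housekeeping genes in this set moved less: EEF1A1, a translation elongation factor, had a log2 fold change of 0.28, GAPDH of 0.30, TPT1 of 0.41 and PABPC1, which binds poly-A tails, of 0.72. These genes and ACTG1 have close copies or many pseudogenes, so their counts are uncertain.

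**Figure D2:**
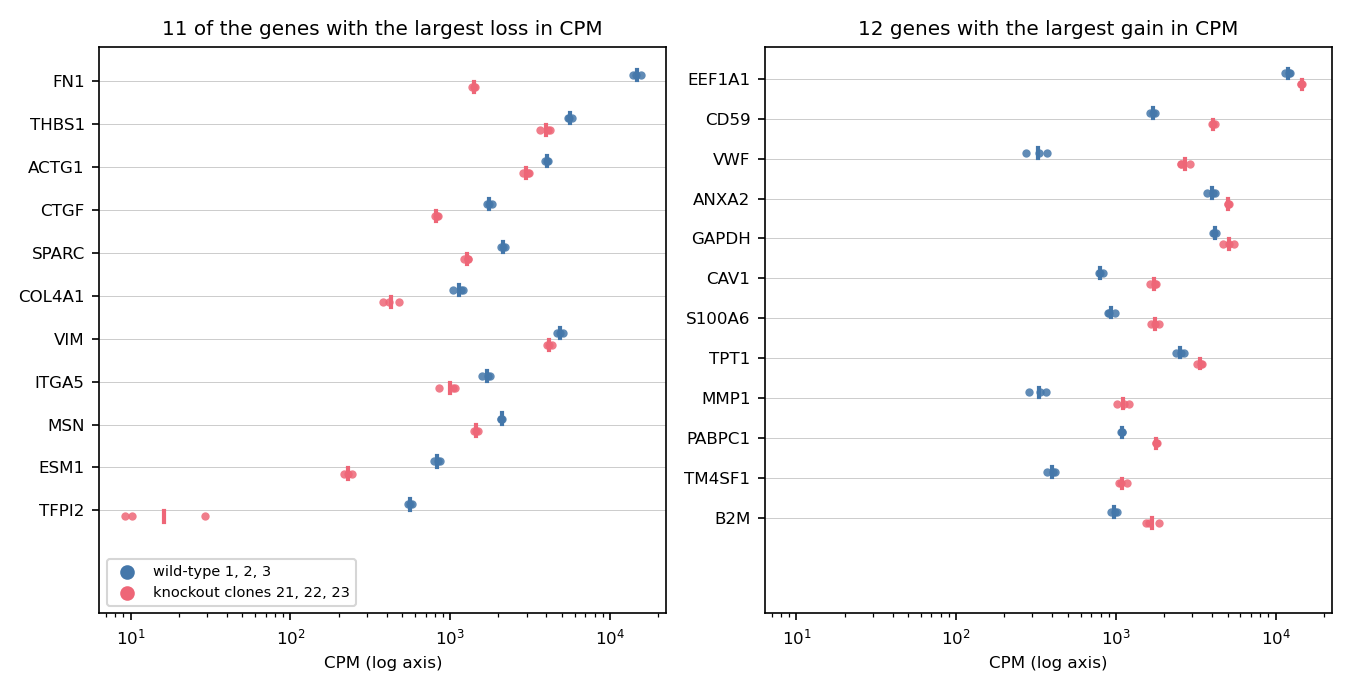
CPM on a log axis for 11 of the 12 called genes with the largest loss (left) and the 12 with the largest gain (right), with a point per library and a bar at the group mean. FN1 moves from 15512, 14014 and 14499 to 1427, 1417 and 1374 CPM, and in every gene shown the 3 clones lie on 1 side of the 3 wild-type libraries.

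Gene lists are described by how many members rose or fell, to be read against 23.04% rising and 27.05% falling over all genes, and a median of -0.03. A member below the filter is not counted as unchanged. The lists were chosen with earlier results of these data known, and 37.4% of their 564 tested members were called at 1.5-fold against 13.9% of all genes, so the share over the lists is not a result.

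**Figure D3:**
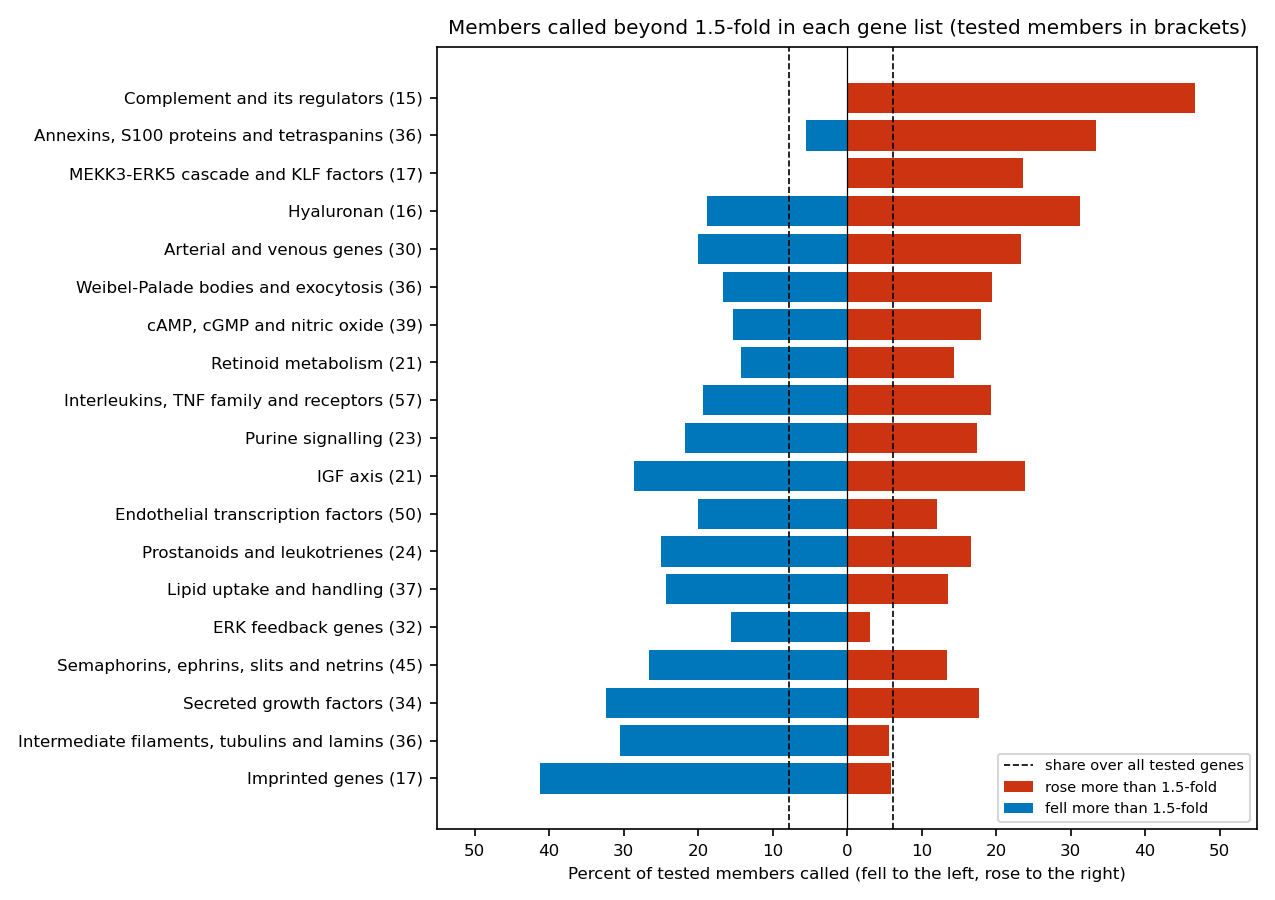
For each of the 19 gene lists, the percent of tested members called at more than 1.5-fold, with genes that rose to the right and genes that fell to the left, and dashed lines at the shares over all tested genes (6.14% and 7.75%). Complement and its regulators have 7 of 15 members to the right and 0 to the left, and imprinted genes 1 of 17 to the right and 7 to the left.

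Complement, a blood cascade that tags and lyses cells, is held in check on host cells by surface and soluble regulators. Of 36 listed genes 15 were tested, 8 rose and 1 fell, with a median log2 fold change of 0.70, and 5 of the 6 tested regulators rose. CD59, which blocks assembly of the lytic pore, had 1623, 1747 and 1713 CPM in wild-type and 4145, 3991 and 4041 CPM in the clones (2.40-fold). CD55, which speeds the decay of the convertases, rose from 198, 211 and 207 CPM to 609, 648 and 665 CPM (3.12-fold), and CD46, a cofactor for their cleavage, rose by a log2 fold change of 0.40 (SE 0.06). CFI, the soluble protease that uses that cofactor, was at 1.70, 2.52 and 1.81 CPM in wild-type and 40.3, 48.9 and 57.2 CPM in the clones (24.2-fold). CLU, the chaperone clusterin, rose from 52.1, 67.9 and 56.8 CPM to 554, 357 and 422 CPM, highest in clone 21. Of 6 tested components of the cascade itself 3 rose and 1 fell. CFP, properdin, was at 0.517, 0.505 and 0.492 CPM in wild-type and 8.57, 9.62 and 13.95 CPM in the clones, and CFB, the protease of the alternative pathway, at 0.739, 1.11 and 0.755 CPM and 6.35, 7.11 and 8.69 CPM. None of the 3 tested receptors was called. CD93, a surface lectin listed with them, had 1052, 1079 and 993 CPM in wild-type and 1109.7, 999.7 and 963 CPM in the clones, which overlapped.

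Weibel-Palade bodies, the rod-shaped storage granules of endothelium, gained some cargo transcripts and lost others. Of 40 listed genes 36 were tested, 18 rose and 9 fell, with a median of 0.17, and among 11 cargo genes 6 rose and 4 fell. VWF, the clotting protein that forms the granule, was at 329, 372 and 275 CPM in wild-type and 2566, 2926 and 2565 CPM in the clones (8.25-fold), with FPKM group means of 31.5 and 256. SELP, the leukocyte receptor P-selectin carried in the granule membrane, was at 1.48, 1.45 and 1.54 CPM in wild-type and 74.7, 74.3 and 64.5 CPM in the clones. ANGPT2, a TEK ligand stored beside them, moved the other way, from 34.8, 34.1 and 33.7 CPM to 6.01, 7.32 and 7.95 CPM, 4.81-fold lower. The secretory RAB genes parted as well: RAB27A, which marks mature granules, rose from 32.96, 31.5 and 34.4 CPM to 67.7, 72.7 and 74.7 CPM, and RAB3B fell from 79.8, 70.7 and 84.5 CPM to 8.19, 5.94 and 5.57 CPM (11.97-fold). Of 13 genes of the fusion machinery 6 rose and 2 fell. VAMP8, a vesicle fusion protein, rose 5.21-fold from 16.9, 20.1 and 21.1 CPM to 99.1, 97.5 and 106 CPM. S100A10, partner of annexin A2 in granule release, was at 172, 193 and 193 CPM and 600.5, 609 and 670.4 CPM (3.37-fold). IGFBP7, the most abundant member that was not called, had 366, 387 and 393 CPM in wild-type and 367, 322 and 328 CPM in the clones (log2 fold change -0.17, adjusted p = 0.147).

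Annexins, S100 proteins and tetraspanins, calcium-binding and membrane-organizing families, rose in 22 of 36 tested members and fell in 5, with a median log2 fold change of 0.36. At 1.5-fold 12 rose and 2 fell. Of 8 tested S100 genes 7 rose, among them S100A6 from 894, 980.0 and 903 CPM to 1766, 1667 and 1857 CPM. Of 8 annexins, which bind phospholipids in the presence of calcium, 5 rose and 0 fell: ANXA3 rose 3.88-fold, from 54.9, 54.6 and 55.6 CPM to 199, 224 and 217 CPM, and ANXA2 by a log2 fold change of 0.35 (SE 0.06). ANXA1 was at 1066, 1096 and 1199 CPM in wild-type and 1269, 1127 and 1072 CPM in the clones, overlapping levels. The 20 tetraspanins held 10 that rose and 5 that fell. TSPAN7 had 0.259, 0.269 and 0.295 CPM in wild-type and 16.3, 14.8 and 14.7 CPM in the clones, 54.6-fold higher. TSPAN18 rose 6.54-fold and TSPAN3 1.63-fold, whereas TSPAN13 fell from 22.9, 24.4 and 21.8 CPM to 3.98, 5.07 and 3.62 CPM.

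Signalling by cAMP, cGMP and nitric oxide relaxes vessels, and cAMP also tightens endothelial junctions. Genes listed under synthesis rose more often than they fell, and genes of breakdown fell more often than they rose. The synthesis group includes CAV1 and NOSTRIN, which do not themselves make these signals. Of 16 tested genes listed under synthesis 8 rose and 4 fell, and of 13 phosphodiesterases, which break the nucleotides down, 3 rose and 6 fell. Over the 39 tested genes of 54 listed, 13 rose and 16 fell, with a median of -0.05. NOS3, the endothelial nitric oxide synthase, was at 48.9, 51.6 and 37.8 CPM in wild-type and 109, 129.9 and 135 CPM in the clones. NPR1, a natriuretic peptide receptor that makes cGMP, rose from 3.14, 3.97 and 3.02 CPM to 48.7, 74.99 and 56.3 CPM, and NOSTRIN, an adaptor that moves NOS3 off the membrane, from 0.111, 0.202 and 0.164 CPM to 13.5, 5.83 and 15.2 CPM, with clone 22 lowest. ADCY4, an adenylyl cyclase, rose 2.42-fold, from 29.9, 30.3 and 25.7 CPM to 67.8, 68.5 and 71.7 CPM. Among the phosphodiesterases PDE5A, specific for cGMP, fell from 9.98, 8.98 and 9.26 CPM to 0.574, 0.692 and 0.671 CPM (14.4-fold). PDE3B was at 8.94, 8.18 and 8.80 CPM in wild-type and 0.459, 0.547 and 0.235 CPM in the clones (20.9-fold lower), while PDE2A, which cGMP activates, rose from 59.7, 63.1 and 54.8 CPM to 153, 159 and 150.4 CPM. Of 10 effectors 2 rose and 6 fell. PRKG1, the cGMP-dependent kinase, had 226 counts over the wild-type libraries and 1 over the clones, a ratio of 216 (95% counting interval 38.4 to 8568), and PRKACB, a catalytic subunit of protein kinase A, fell by 0.85 on the log2 scale (SE 0.05). CAV2 was at 164, 153 and 145 CPM and 172, 167 and 161 CPM and was not called.

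**Figure D4:**
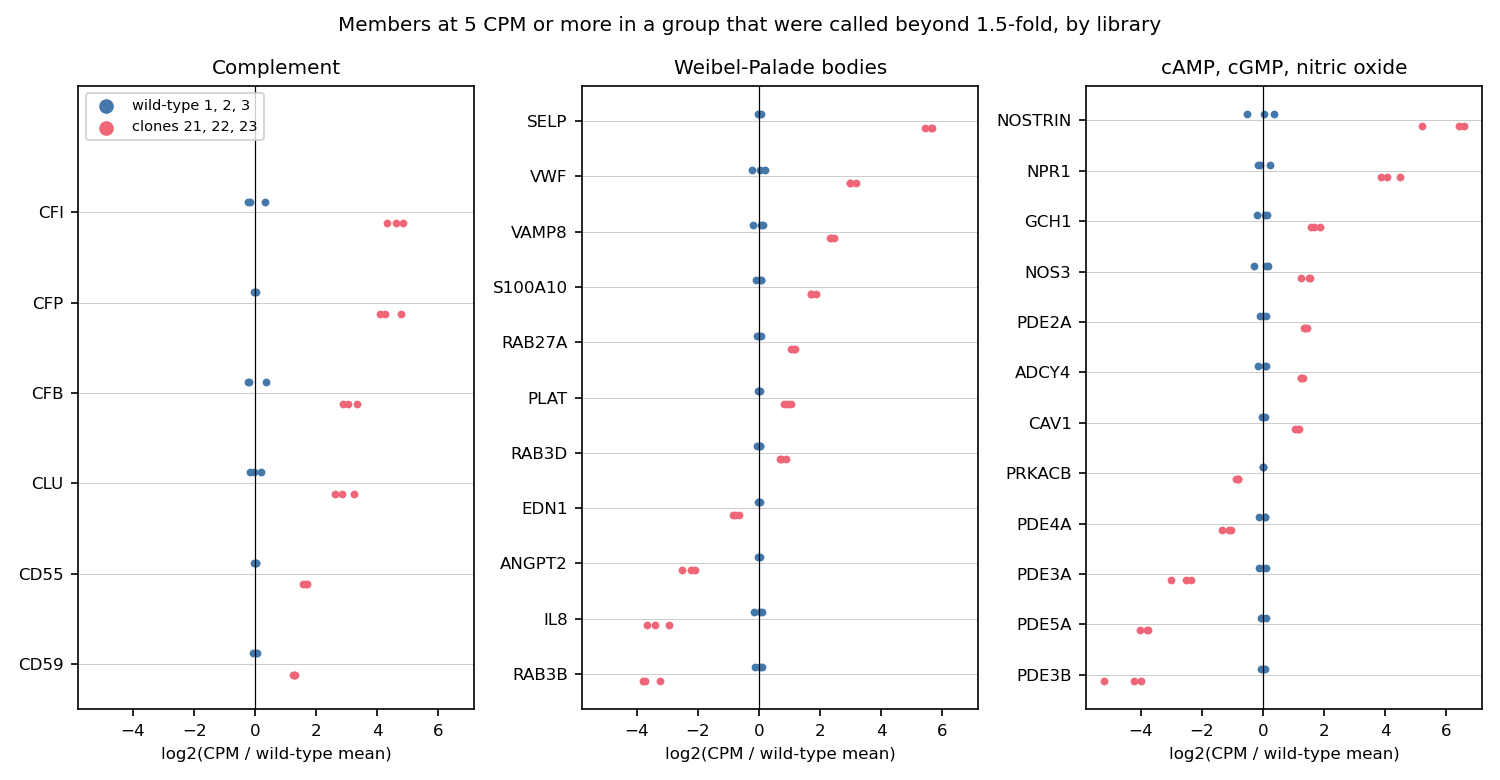
For members at 5 CPM or more in a group that were called at more than 1.5-fold in 3 lists, log2 of the CPM of each library over the wild-type mean, with 3 wild-type and 3 clone points per gene. All complement genes shown lie to the right, SELP and NOSTRIN lie farthest right and RAB3B and PDE3B farthest left in their panels.

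Intermediate filaments, tubulins and lamins, the parts of the cell and nuclear skeleton other than actin, fell in 21 of 36 tested genes and rose in 4, with a median of -0.26, and at 1.5-fold 2 rose and 11 fell. Of 13 tubulins 9 fell and 1 rose. TUBA1A, an alpha-tubulin, was at 852, 1029 and 757 CPM in wild-type and 358, 349.9 and 319 CPM in the clones, and TUBB3 fell from 57.7, 55.3 and 46.3 CPM to 22.5, 26.5 and 25.2 CPM (2.15-fold). TUBB2B, a low member, was at 1.44, 1.45 and 2.002 CPM and 0.0383, 0.109 and 0.0335 CPM, with a log2 fold change of -4.67, or -5.35 without clone 22. TUBA4A was the tubulin that rose, 5.96-fold from 7.91, 8.55 and 7.71 CPM to 50.7, 43.3 and 50.2 CPM. Some tubulin genes are close to each other in sequence, so their counts are uncertain. The microtubule-binding protein MAP1B fell from 401, 355 and 370.3 CPM to 222, 214 and 199 CPM, MAP1A had a log2 fold change of -3.23, and DCLK1, a kinase of microtubules, from 4.99, 5.15 and 4.73 CPM to 0.344, 1.06 and 0.637 CPM. NES, nestin, was at 561, 564 and 539 CPM and 470.5, 533 and 538 CPM and was not called (adjusted p = 0.177).

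Secreted growth factors fell more often than they rose, with 17 of 34 tested genes lower and 11 higher of 44 listed, a median of -0.34, and 11 lower and 6 higher at 1.5-fold. PDGFB, the platelet-derived growth factor that recruits pericytes, fell from 145, 143 and 129 CPM to 51.4, 48.9 and 44.9 CPM (2.87-fold). The lymphatic growth factor VEGFC was at 33.6, 36.8 and 39.03 CPM in wild-type and 24.1, 31.5 and 33.4 CPM in the clones, which was not called (log2 fold change -0.30, adjusted p = 0.0917). Of 6 tested FGF and EGF family ligands 2 rose and 3 fell. HBEGF, of the EGF family, fell from 49.1, 45.3 and 52.98 CPM to 12.6, 11.8 and 11.7 CPM (4.07-fold), and NRG1, neuregulin, from 46.1, 40.3 and 45.7 CPM to 6.47, 9.33 and 10.97 CPM. FGF5 had 466 counts over the wild-type libraries and 0 over the clones, at least 148-fold lower at a floor of 3 counts over the group, whereas FGF2 was at 92.3, 79.2 and 85.3 CPM in wild-type and 171, 176 and 155 CPM in the clones. CTGF, a matrix-bound growth factor, fell 2.15-fold from 1745, 1706 and 1823 CPM to 833, 797 and 821 CPM, and ESM1, a proteoglycan of activated endothelium, 3.63-fold from 858, 796 and 837 CPM to 242, 228 and 217 CPM. DKK3, of the dickkopf family, fell from 86.8, 88.7 and 86.3 CPM to 22.5, 24.3 and 22.7 CPM. PROS1, protein S, an anticoagulant that also activates TAM receptors, rose 5.25-fold from 10.8, 11.4 and 11.3 CPM to 63.96, 61.00 and 51.2 CPM, and APLN, the peptide apelin, from 113, 122 and 115 CPM to 324, 296 and 380.3 CPM.

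Genes listed as feedback genes of ERK, the kinase that many growth factors activate, moved in both directions. Of 32 tested genes 9 rose and 14 fell, with a median of -0.17, and at 1.5-fold 1 rose and 5 fell. Of 12 listed dual-specificity phosphatase genes, not all of them phosphatases of ERK, 6 rose and 4 fell. DUSP5, a nuclear ERK phosphatase, rose from 15.999, 17.3 and 17.96 CPM to 32.5, 33.9 and 33.6 CPM. DUSP4 had a log2 fold change of 0.58 and DUSP22 of 0.58, and DUSP8 fell by 1.65 on the log2 scale. Of 6 sprouty and SPRED genes, which inhibit the path to ERK, 4 fell and 1 rose, with SPRED1 at 37.3, 32.4 and 32.8 CPM in wild-type and 20.7, 20.2 and 18.7 CPM in the clones. ETV1, an ETS factor raised by ERK, fell 2.92-fold from 16.9, 15.4 and 15.1 CPM to 5.21, 5.65 and 5.40 CPM. The factor gene MYC was at 208, 188 and 178 CPM in wild-type and 180.4, 229 and 171 CPM in the clones, levels that overlapped.

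In the insulin-like growth factor axis most tested binding proteins rose and most receptor and substrate genes fell. Of 7 tested binding proteins, which hold the ligands outside the cell, 5 rose and 0 fell, and of 5 receptor and substrate genes 0 rose and 4 fell, with no ligand above the filter. Over the 21 tested genes 7 rose and 8 fell, with a median of -0.03. IGFBP4 was at 282, 322 and 299.8 CPM in wild-type and 569, 577 and 633 CPM in the clones (1.97-fold). IGFBP6 rose 6.02-fold from 3.21, 4.37 and 4.005 CPM to 23.04, 22.3 and 24.6 CPM, and IGFBP5 8.42-fold from 0.813, 0.908 and 0.821 CPM to 6.28, 9.33 and 5.94 CPM. IRS2, the docking protein of both receptors, fell from 16.8, 17.3 and 18.8 CPM to 5.21, 3.61 and 2.88 CPM. Among other members STC2, an inhibitor of the protease that frees the ligands, fell 3.96-fold from 173, 168 and 166 CPM to 43.4, 39.8 and 44.8 CPM. The receptor-binding adaptors parted: GRB10 fell from 248, 241 and 240.0 CPM to 125, 131 and 131 CPM and GRB14 rose from 45.3, 47.5 and 50.5 CPM to 89.3, 91.9 and 86.4 CPM.

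Prostanoids are lipid signals made from arachidonic acid, which phospholipases free. Of 4 tested phospholipases 1 rose and 2 fell. PLA2G4A, of these, fell from 33.1, 34.5 and 36.5 CPM to 8.08, 9.95 and 9.16 CPM (3.83-fold). PTGS1 and PTGS2, the constitutive and inducible cyclooxygenases, fell from 52.3, 60.3 and 52.5 CPM to 10.3, 9.11 and 14.1 CPM and from 21.98, 16.3 and 19.2 CPM to 1.19, 1.64 and 1.31 CPM. TBXAS1, thromboxane synthase, was 6.76-fold lower (SE 0.26 on the log2 scale). Of 11 tested synthesis genes 3 rose and 6 fell, and PTGES3, also a chaperone and called as higher under 5 of 15 alternatives, was at 404, 410.0 and 447 CPM and 474, 468 and 472 CPM (log2 fold change 0.16, adjusted p = 0.0634). SLCO2A1, the carrier that takes prostaglandins up for breakdown, rose 7.65-fold, from 39.98, 48.7 and 40.1 CPM to 312, 345 and 329 CPM. LTA4H, which makes the leukotriene LTB4, rose by a log2 fold change of 0.81 (SE 0.06). Over 24 tested genes of 36 listed 7 rose and 9 fell, with a median of 0.01.

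Purine signalling, in which cells release ATP and turn it into adenosine, was mixed. Of 23 tested genes of 39 listed 7 rose and 11 fell, with a median of -0.28. PANX1, a channel for ATP release, fell from 25.01, 23.6 and 25.1 CPM to 12.9, 12.3 and 12.5 CPM. Of 11 tested genes listed as surface enzymes 3 rose and 6 fell. ENTPD1 and NT5E, which degrade ATP stepwise to adenosine, rose. ENTPD1 went from 8.31, 7.60 and 8.24 CPM to 17.99, 17.5 and 23.1 CPM and NT5E from 307, 328 and 309 CPM to 549, 485 and 448 CPM. DPP4, which anchors adenosine deaminase, rose from 6.98, 7.20 and 6.20 CPM to 50.1, 106 and 73.6 CPM, with clone 22 highest. ENPP1, which makes pyrophosphate from ATP, fell 19.8-fold from 7.94, 7.84 and 7.91 CPM to 0.536, 0.146 and 0.503 CPM, and ENTPD7 fell 2.11-fold. Of 6 tested P2 receptors 2 rose and 2 fell, with P2RY2, a receptor of ATP and UTP, at 3.55, 1.55 and 2.43 CPM in wild-type and 13.2, 17.1 and 18.2 CPM in the clones. The adenosine receptor ADORA2B was at 20.95, 19.2 and 21.9 CPM and 16.9, 18.04 and 19.1 CPM (log2 fold change -0.20, adjusted p = 0.0523).

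Genes of lipid uptake and handling had 37 tested members: 8 rose, 13 fell and 16 missed the threshold, around a median of -0.06. LIPG, the endothelial lipase, fell 7.94-fold, from 243, 257 and 245 CPM to 32.1, 37.9 and 24.2 CPM, and LRP1, a scavenger receptor, from 4.14, 3.40 and 2.46 CPM to 0.421, 0.510 and 0.470 CPM. The lipid phosphatases PPAP2B and PPAP2A rose 3.12-fold and 1.93-fold, PPAP2B from 43.3, 46.5 and 41.99 CPM to 132, 143 and 135 CPM. The apolipoprotein gene APOL3 was at 15.3, 20.3 and 14.1 CPM in wild-type and 127, 107 and 109 CPM in the clones (6.89-fold), and APOL1, a neighbouring family member, at 2.77, 3.20 and 2.92 CPM and 46.4, 37.5 and 30.3 CPM (12.8-fold). LRP8 was at 76.8, 74.9 and 77.7 CPM and 66.9, 72.9 and 66.2 CPM and was not called (adjusted p = 0.059).

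Hyaluronan, the large sugar polymer of the cell coat, is made at the cell membrane and cut by hyaluronidases. All 5 tested breakdown genes rose, of 6 listed, and of 3 tested synthesis genes 2 fell and 0 rose. HYAL1, a lysosomal hyaluronidase, was at 2.51, 2.36 and 1.61 CPM in wild-type and 19.98, 29.99 and 25.7 CPM in the clones (11.7-fold). UGDH, which makes the precursor sugar, fell from 57.7, 54.6 and 60.5 CPM to 43.1, 40.6 and 39.1 CPM, and the synthase HAS3 was at 1.77, 1.85 and 1.97 CPM and 1.61, 2.81 and 2.31 CPM, which overlapped. Of 8 receptors and binding proteins 2 rose and 6 fell: LYVE1, the receptor of lymphatic endothelium, rose from 25.1, 27.4 and 25.4 CPM to 325, 251 and 331 CPM, CD44 fell from 579.9, 559 and 616 CPM to 412, 385 and 358 CPM, HABP4 by 0.66 on the log2 scale, and the proteoglycan VCAN, versican, fell 10.2-fold from 34.8, 31.99 and 30.8 CPM to 3.44, 3.50 and 2.62 CPM. Over 16 tested genes 7 rose and 8 fell, with a median of 0.04.

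Semaphorins, ephrins, slits and netrins, guidance cues of axons and vessels, fell in 22 of 45 tested genes and rose in 11, with a median of -0.30, and at 1.5-fold 6 rose and 12 fell. Of 24 semaphorin and plexin genes 5 rose and 11 fell. PLXNA4, a receptor with neuropilins, fell 12.7-fold, from 36.4, 31.9 and 35.9 CPM to 2.72, 2.73 and 2.75 CPM, while PLXND1, the plexin of endothelium, was at 432, 418 and 352 CPM in wild-type and 378, 436 and 429 CPM in the clones, which overlapped. The transmembrane semaphorins SEMA6A and SEMA6D moved apart, SEMA6A from 0.333, 0.437 and 0.230 CPM to 6.62, 5.90 and 7.55 CPM and SEMA6D from 6.98, 6.76 and 6.63 CPM to 0.804, 1.09 and 0.537 CPM. Of 12 ephrin and EPH genes 5 rose and 5 fell. The receptor EPHA4 rose 3.33-fold, from 15.9, 14.2 and 14.7 CPM to 52.5, 49.2 and 47.5 CPM, and its relative EPHA5 had 317 counts over the wild-type libraries and 1 over the clones, a ratio of 303 (95% counting interval 53.98 to 12004). EFNB3, an ephrin ligand, fell 13.04-fold from 2.92, 3.30 and 2.86 CPM to 0.230, 0.219 and 0.235 CPM. Of 9 slit, netrin and receptor genes 1 rose and 6 fell.

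Arterial and venous genes, which mark both kinds of vessel, were counted apart, and the difference between them was not tested. Of 18 tested arterial genes 6 rose and 11 fell (median -0.50), and of 12 venous genes 7 rose and 2 fell (median 0.44), against 23.04% and 27.05% of all genes. Arterial HEY2, a repressor downstream of Notch, had 1181 counts over the wild-type libraries and 1 over the clones, a ratio of 1129 (95% counting interval 202 to 44618). CXCR4, a chemokine receptor of arterial tip cells, was at 15.7, 16.5 and 15.9 CPM in wild-type and 1.19, 0.875 and 0.704 CPM in the clones, and FBLN5, an elastic fibre protein, at 41.6, 44.7 and 44.8 CPM and 0.0383, 0.0364 and 0.0671 CPM. BMX, an arterial kinase, moved against them, from 80.5, 91.3 and 81.3 CPM to 271, 283 and 308 CPM (3.40-fold). The venous factor NR2F2 was at 266, 252 and 241 CPM in wild-type and 241, 230.0 and 247 CPM in the clones (log2 fold change -0.08, adjusted p = 0.371). PLVAP, which forms the diaphragms of fenestrae and is listed with the venous genes, fell 9.29-fold from 14.3, 16.4 and 13.2 CPM to 1.88, 1.02 and 1.81 CPM. VWF and NT5E, given above, are on the venous side.

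Transcription factors of endothelium had 16 of 50 tested genes that rose and 17 that fell, with a median of 0.07, and at 1.5-fold 6 rose and 10 fell. ERG, an ETS factor that keeps endothelial identity, was at 297, 304 and 303 CPM in wild-type and 292, 274 and 275 CPM in the clones (log2 fold change -0.10, adjusted p = 0.111), and its close relative FLI1 rose from 148, 151 and 149 CPM to 281, 293 and 285 CPM (1.92-fold). LMO2, a bridging cofactor of blood and vessel development, rose 4.97-fold, from 13.97, 16.048 and 15.1 CPM to 75.7, 66.4 and 82.3 CPM. Related SOX factors parted: SOX17 fell from 10.8, 10.2 and 10.4 CPM to 2.18, 2.70 and 1.74 CPM and SOX18 rose from 8.98, 8.98 and 7.35 CPM to 14.2, 18.98 and 21.4 CPM. SOX4 fell from 163, 159 and 156 CPM to 85.7, 79.98 and 77.2 CPM, and SOX13 rose from 13.1, 13.9 and 11.9 CPM to 28.7, 30.8 and 32.5 CPM. NFATC2, a calcium-responsive factor, rose 3.60-fold and IRF1, an interferon-responsive factor, 2.29-fold.

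Interleukins, TNF ligands and their receptors were called often in both directions, with 24 that rose and 21 that fell of 57 tested and a median of 0.14. At 1.5-fold 11 rose and 11 fell. Of 16 TNF receptors 10 rose and 5 fell, and of 8 TNF ligands 2 rose and 4 fell. TNFSF4, a costimulatory ligand, rose 5.13-fold from 11.5, 12.8 and 12.4 CPM to 65.6, 67.8 and 54.9 CPM, and TNFSF10, the death ligand TRAIL, from 6.21, 6.06 and 5.42 CPM to 45.01, 33.2 and 32.2 CPM. TNFSF15, a ligand of endothelium, fell from 32.5, 26.8 and 31.2 CPM to 4.36, 3.32 and 2.92 CPM. TNFRSF10D, a decoy receptor of TRAIL, fell 2.07-fold from 192, 192 and 187 CPM to 92.8, 89.1 and 93.8 CPM, and the death receptor TNFRSF10B was at 285, 278 and 279 CPM in wild-type and 302, 291 and 290.2 CPM in the clones (log2 fold change 0.07, adjusted p = 0.286). CD40, which binds a T cell ligand, rose from 2.36, 2.46 and 1.77 CPM to 8.57, 6.81 and 6.74 CPM. Of 22 tested interleukin receptor genes 8 rose and 8 fell. OSMR, which binds oncostatin M, rose from 19.3, 16.2 and 18.1 CPM to 61.3, 55.4 and 54.8 CPM and the interleukin 6 receptor IL6R from 6.10, 6.73 and 6.50 CPM to 23.1, 23.7 and 22.7 CPM. IL1RL1, the receptor of IL33, fell from 561, 521 and 611 CPM to 134, 144 and 193 CPM, and IL8, a neutrophil chemokine, from 40.1, 42.2 and 35.1 CPM to 5.09, 3.68 and 3.09 CPM.

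Retinoid metabolism, which makes and clears the ligand of RAR receptors, had 8 that rose and 5 that fell of 21 tested, with a median of 0.28. The enzymes that make retinoic acid moved in different directions: ALDH1A2 rose 4.72-fold, from 19.95, 20.9 and 20.9 CPM to 82.3, 105 and 104 CPM, ALDH1A1 fell from 62.1, 60.8 and 65.3 CPM to 3.75, 1.97 and 0.973 CPM and ALDH1A3 from 73.2, 71.02 and 76.8 CPM to 48.6, 42.3 and 44.8 CPM. DHRS9, a retinol dehydrogenase, fell from 5.43, 6.29 and 4.23 CPM to 0.383, 0.219 and 0.168 CPM, and RDH11 was at 86.1, 88.7 and 96.4 CPM and 98.4, 97.6 and 96.5 CPM and was not called (adjusted p = 0.125). Of the retinoid targets TGM2, tissue transglutaminase, rose from 999, 1019.6 and 924 CPM to 1369, 1669.6 and 1574 CPM, RARRES3 by a log2 fold change of 3.07, and the receptor RARB, itself a target, fell from 50.9, 48.04 and 55.3 CPM to 29.7, 28.97 and 26.2 CPM.

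Imprinted genes, expressed from the copy of 1 parent, fell in 10 of 17 tested members and rose in 2, with a median of -0.66. Among 10 paternally expressed genes 7 fell and 1 rose, and among 7 maternally expressed genes 3 fell and 1 rose. MEST, a paternally expressed hydrolase, was at 145, 135 and 177 CPM in wild-type and 21.4, 13.05 and 13.1 CPM in the clones, and SNRPN, a splicing protein, fell from 81.5, 87.7 and 85.2 CPM to 46.1, 49.3 and 46.2 CPM. NDN, necdin, had 292 counts over the wild-type libraries and 2 over the clones, a ratio of 139.5 (95% counting interval 38.3 to 1158). PEG10 had 100 and 2 counts, a ratio of 47.8 (interval 12.9 to 400.0), and SGCE, its neighbour, fell from 2.33, 2.29 and 1.97 CPM to 0, 0.109 and 0.101 CPM. NLRP2, on the maternal side, rose 4.29-fold from 9.31, 10.9 and 10.5 CPM to 42.7, 39.9 and 49.6 CPM, and UBE3A, whose imprint is known from neurons, was at 87.02, 81.4 and 88.4 CPM and 84.2, 80.97 and 76.8 CPM and was not called (adjusted p = 0.242). The counts do not separate the parental copies.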

How the data were processed

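Strand-selected mRNA libraries (TruSeq) were sequenced, and the authors aligned reads with STAR and counted them with HTSeq on hg19, per the submitters' processing notes. Neither versions nor the strand setting were stated there. Deposited by the authors were whole-number counts per gene symbol and FPKM values. Their deposited comparison table gives log2 fold changes, p-values, a mean normalized signal and a standard error (unit score). In it 13 names had turned into dates and were not matched. CPM were computed here from the counts and TMM-scaled library totals. Genes were filtered (filterByExpr, minimum count 10, minimum total 15), scaled by TMM and tested in 1 fit of 9 libraries with edgeR 4.0.16 (robust quasi-likelihood test, Benjamini-Hochberg adjustment, R 4.3.3), tested on simulated data. A second call used glmTreat at 1.5-fold. A fitted standard error is the absolute log2 fold change over the root of F. Group values at 0 counts were set to 3 counts over the group, and ratios with 1 to 3 counts carry 95% exact counting intervals, which cover counting error only. Genes named are PDCD10, KLF2, KLF4, FN1, ID1, ID3, the 12 largest CPM gains and losses among called genes, and per list up to 6 called members with the smallest p and the most abundant uncalled one. A further 22 genes were named after their values were seen. Some genes are not reported here. Members and lists were chosen with earlier results of these data known. DESeq2 1.42.0 and limma 3.58.1 served as alternatives.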

Additional observations from a re-analysis of the deposited data

How the results depend on the processing

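Under other normalizations, filters, spread estimates, tools and sets of libraries the number of genes called ran from 5701 to 7337, against 6913. With all 6 libraries of both groups kept it ran from 6512 to 7337. The number called at 1.5-fold ran from 1641 to 2058, against 1918. Risen genes made up 43.1% to 50.5% of the calls. No alternative called a gene in the opposite direction, and 81.3% to 99.6% of the calls were kept. Leaving out each library in turn gave 5701 to 6360 calls, 1718 to 1888 calls at 1.5-fold and a PDCD10 log2 fold change of -0.405 to -0.298. Wild-type and knockout share no replicate numbers. A limma fit with the clone as a random replicate block called 6946 genes (PDCD10 -0.36) and the fit without it 6951, and DESeq2 called 6676. Of 2565 values of named genes under alternatives, 2537 kept direction and side of the threshold, 18 became called (ID1 under 6 alternatives, PTGES3 under 5, ADORA2B under 3, LRP8 under 2, CAV2 and RDH11 under 1 each), 1 lost its call (VIM without clone 21) and 9 reversed. All reversals were in genes that were not called, and their cause was not tested. The log2 fold change of CD93 was 0.0070 with 6 libraries, 0.0078 without wild-type 1, 0.0032 without wild-type 2 and 0.021 without clone 23. The range without 1 library was -0.062 to 0.021. That of MYC was -0.0033 with library totals, -0.030 without wild-type 3 and -0.12 without clone 22, up to 0.10 without wild-type 1. PLXND1 ran from -0.036 without wild-type 3 to 0.13 without clone 21, and ANXA1 from -0.0031 without clone 21 to 0.099 without clone 23. Without clone 22 the log2 fold change of TUBB2B was -5.35, HEY2 -11.60 and PRKG1 -9.21, and without clone 23 EPHA5 was -9.69 and PEG10 -8.03. The called share was lowest for the rarest genes, 32.0% of genes below 1 CPM against 59.0% above 100 CPM. At 1.5-fold the order turned, with 19.1% and 11.9% called. The part of depth in this was not tested.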
